A study of Mus musculus with 12 samples.

Results

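The guanylate-binding protein genes Gbp2, Gbp3, Gbp5, Gbp6, Gbp7, Gbp8 and Gbp9 were examined in cultured mouse neutrophils exposed to conjugated bile acids. The 7 genes were picked by name from 29737 genes in the count table. They were chosen by a rule that used the measured values, since Gbp5 and Gbp6 stood higher with tauro-β-muricholic acid (Tβ-MCA), so every difference between Tβ-MCA and another group is given below as a description of these genes and without a test. All 7 passed the filter on low counts, which kept 16761 genes. The table also listed Gbp2b, Gbp4, Gbp10 and Gbp11, which are not among the 7 and are described beside them.

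The cells were Ly6G+ neutrophils of WT mice, taken from bone marrow with magnetic beads and kept in culture for 24 h. Bulk RNA-sequencing was made of 12 samples in 4 groups of 3, treated with PBS as the control, with taurocholic acid (TCA) at 200 μM, with glycocholic acid (GCA) at 200 μM, or with Tβ-MCA. The labels give 10 μM for Tβ-MCA and the methods of the study give 200 μM, so this bile acid is set beside the others and its dose is not treated as matched. The labels give no strain or age. For its animals in general, the methods of the study name female C57BL/6 mice aged 4 to 6 weeks. The labels do not say whether the samples of a group came from separate mice or cultures, so p-values measure the spread between these samples. Total counts ran from 32757389 to 41375925 per sample, and 3 counts, taken here as the floor, corresponded to 0.0725 to 0.0916 CPM (counts scaled to a common library total, with the library sizes adjusted by TMM). In every sample at least 2.93 times as many genes had 2 counts as had 1. Whether each count stands for a separate RNA fragment was not tested, so low counts may rest on fewer fragments. The 12 neutrophil markers examined, S100a9 and Ly6g among them, were detected in every group and summed to 39881 to 61349 CPM per sample. The 12 monocyte and macrophage markers summed to 2195 to 3713 CPM in the samples of the other 3 groups while with Tβ-MCA the sums were 553, 712 and 2487 CPM for replicates 3, 4 and 5. The 5 B cell markers summed to at most 12.5 CPM and the 6 listed T and NK cell markers to at most 3.59 CPM.

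Guanylate-binding proteins are large GTPases that interferons, above all interferon-γ, induce in many cell types. They assemble on membranes of vacuoles that hold pathogens and on bacteria in the cytosol, and through the release or exposure of microbial ligands they favour the activation of inflammasomes, the protein complexes that activate caspase-1. In textbook accounts the signal runs from the interferon receptors through the JAK kinases to transcription factors such as IRF1, and the promoters of these genes are known for GAS and ISRE elements.

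In the mouse the Gbp genes lie in a pair of clusters, and the members of each are close copies of one another. In the coordinates of the deposited table (GRCm38), Gbp5 (142493978 to 142522344), Gbp7 (142530342 to 142550149), Gbp3 (142560026 to 142573209) and Gbp2 (142620602 to 142638008) lay on the plus strand of chromosome 3, with Gbp2b between Gbp3 and Gbp2. Gbp8 (105014150 to 105139540), Gbp9 (105077630 to 105139539) and Gbp6 (105270702 to 105293698) lay on the minus strand of chromosome 5, in the company of Gbp4, Gbp10 and Gbp11. Each of the 7 spans was the same as that of the gene of this name in GENCODE vM21, where all are protein-coding genes.

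**Figure D1:**
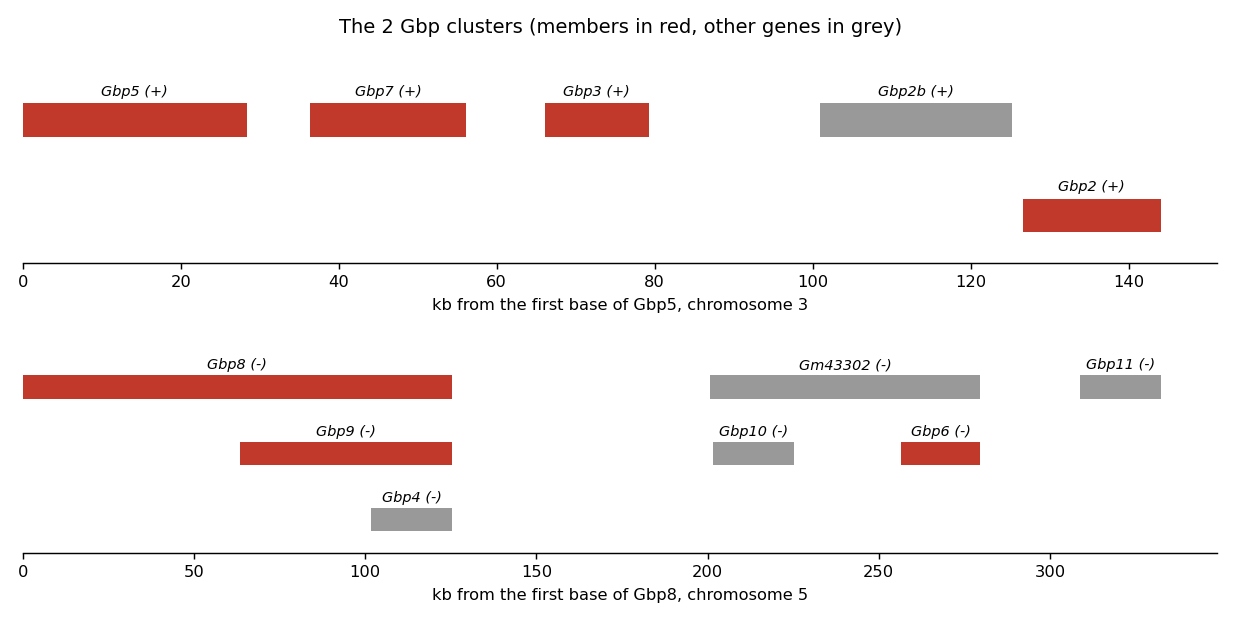
Map of the 2 Gbp clusters, with the distance in kb from the first base of the leftmost gene on the x axis and the strand in brackets. Members are in red and other genes in grey. Gbp3 and Gbp5 overlap no gene, while Gbp6 overlaps Gm43302 and Gbp8, Gbp9 and Gbp4 overlap one another.

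The sequence upstream of the start sites is shown for the chromosome 3 members, because 3 of them (Gbp2, Gbp5 and Gbp7) were higher in every Tβ-MCA sample than in every PBS sample while Gbp3 was not. The 250 bases before the RefSeq start site (build GRCm38.p6, plus strand) are chr3:142620413-142620662 for Gbp2, chr3:142496684-142496933 for Gbp5, chr3:142530086-142530335 for Gbp7 and chr3:142559794-142560043 for the more upstream of the 2 start sites of Gbp3. Capitals mark matches to GAAANTGAAA, the core of an interferon-stimulated response element (ISRE-like), and to TTCNNNGAA, the core of a γ-activated site (GAS-like), each searched on both strands.
Gbp2: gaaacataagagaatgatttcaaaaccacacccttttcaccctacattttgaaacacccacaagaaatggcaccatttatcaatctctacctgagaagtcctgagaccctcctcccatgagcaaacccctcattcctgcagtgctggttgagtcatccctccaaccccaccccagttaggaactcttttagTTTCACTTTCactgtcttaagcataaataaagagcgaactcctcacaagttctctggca
Gbp5: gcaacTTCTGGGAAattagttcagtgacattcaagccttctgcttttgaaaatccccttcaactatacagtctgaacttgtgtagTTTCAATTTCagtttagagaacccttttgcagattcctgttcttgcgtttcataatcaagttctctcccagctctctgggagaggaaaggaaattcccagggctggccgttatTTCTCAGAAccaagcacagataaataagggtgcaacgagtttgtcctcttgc
Gbp7: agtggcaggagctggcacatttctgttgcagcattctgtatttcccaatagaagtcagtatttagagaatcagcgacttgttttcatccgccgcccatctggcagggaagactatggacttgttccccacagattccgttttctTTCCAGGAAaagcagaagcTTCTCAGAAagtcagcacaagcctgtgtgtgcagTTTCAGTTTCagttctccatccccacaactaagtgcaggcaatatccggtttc
Gbp3: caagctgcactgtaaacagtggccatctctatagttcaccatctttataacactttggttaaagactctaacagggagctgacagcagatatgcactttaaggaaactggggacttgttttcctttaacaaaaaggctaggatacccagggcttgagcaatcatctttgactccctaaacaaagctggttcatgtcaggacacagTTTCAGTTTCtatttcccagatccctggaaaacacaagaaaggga
Each of these 4 windows held 1 ISRE-like match, which started 59 bases before the start site in Gbp2, 165 in Gbp5, 53 in Gbp7 and 45 in Gbp3. In all 4 the match was read on the opposite strand. GAS-like matches were found in Gbp5 (2) and Gbp7 (2), and none overlapped the ISRE-like match. Of 32851 promoter windows of the same length in RefSeq, 0.682% held an ISRE-like and 7.02% a GAS-like match. The window of Gbp2b, which had no more than 2 counts in any sample, held an ISRE-like match as well, and that of the second Gbp3 start site held neither. Letters in a window are a description and show no binding in these cells. The table used held no promoter window for the chromosome 5 genes.

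Because the genes are near copies, how far their reads can be told apart differs between members. Of all 50-base windows in the GENCODE vM21 transcripts of each gene, the share also found in another gene was 1.44% for Gbp5, 2.03% for Gbp2, 3.75% for Gbp3, 8.05% for Gbp9, 12.7% for Gbp7 and 18.1% for Gbp8. It was 70.7% for Gbp6, and 64.5% with windows of 100 bases, mostly shared with Gm43302 and Gbp10. Gm43302 is a protein-coding gene on the same strand whose exons hold 29% of the exon bases of Gbp6 and 46.3% of those of Gbp10. Its counts followed those of Gbp6 closely, at 40, 30 and 42 against 42, 32 and 45 in the PBS samples and at 122, 110 and 76 against 120, 114 and 80 in the Tβ-MCA samples. How the counting treated reads that fit more than 1 gene is not given in the sources used here, so the Gbp6 row is uncertain as a measure of Gbp6 alone, and the values below are those of the row. For Gbp7, 11.3% of the exon bases are shared with Gm43802 on the same strand, and Gbp8, Gbp9 and Gbp4 share about 60 exon bases at their common first exon. Gbp2 overlaps Mir6381 on the other strand over 24 exon bases. The rows of Gbp2, Gbp3 and Gbp5 shared the least sequence with other genes.

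Per gene length, Gbp7 was the most abundant member in all 12 samples and Gbp6 or Gbp8 the least. With PBS the levels in RPKM (the deposited read counts scaled to gene length and to the depth of the sample, mean ± SD, n = 3) were 3.46 ± 0.336 for Gbp7, 2.70 ± 0.50 for Gbp3, 2.07 ± 0.421 for Gbp2, 1.08 ± 0.285 for Gbp9, 0.471 ± 0.0950 for Gbp5, 0.347 ± 0.0155 for Gbp8 and 0.186 ± 0.0254 for Gbp6. The ranges of Gbp7 and Gbp3 overlapped over the 3 PBS samples, as did those of Gbp3 and Gbp2, while the other neighbours in this order did not overlap. All 7 were low-abundance transcripts, and Gbp6 and Gbp8 rested on 32 to 45 counts per PBS sample. In every PBS and TCA sample Gbp3 stood above Gbp2. In all 3 Tβ-MCA samples, and in GCA replicate 4, Gbp2 stood above Gbp3.

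The summed RPKM of the 7 genes was 10.3, 8.80 and 11.8 for PBS replicates 3, 5 and 6, while the Tβ-MCA samples had 20.1, 17.5 and 13.3 (replicates 3, 4 and 5). It was 10.8, 9.42 and 10.4 with TCA and 10.4, 14.2 and 9.41 with GCA. The 3 Tβ-MCA samples and GCA replicate 4 had the 4 largest sums and the 4 largest shares of Gbp2 and Gbp5. Gbp2 made up 19.2% to 21.3% of the sum with PBS and 24.1% to 28.3% with Tβ-MCA, and was 27.1% in GCA replicate 4. Gbp3 made up 25.1% to 27.2% with PBS, 16.4% to 22.6% with Tβ-MCA and 18.3% in GCA replicate 4. The share of Gbp7 was much the same, 30.9% to 35.6% with PBS and 30.1% to 33.5% with Tβ-MCA.

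**Figure D2:**
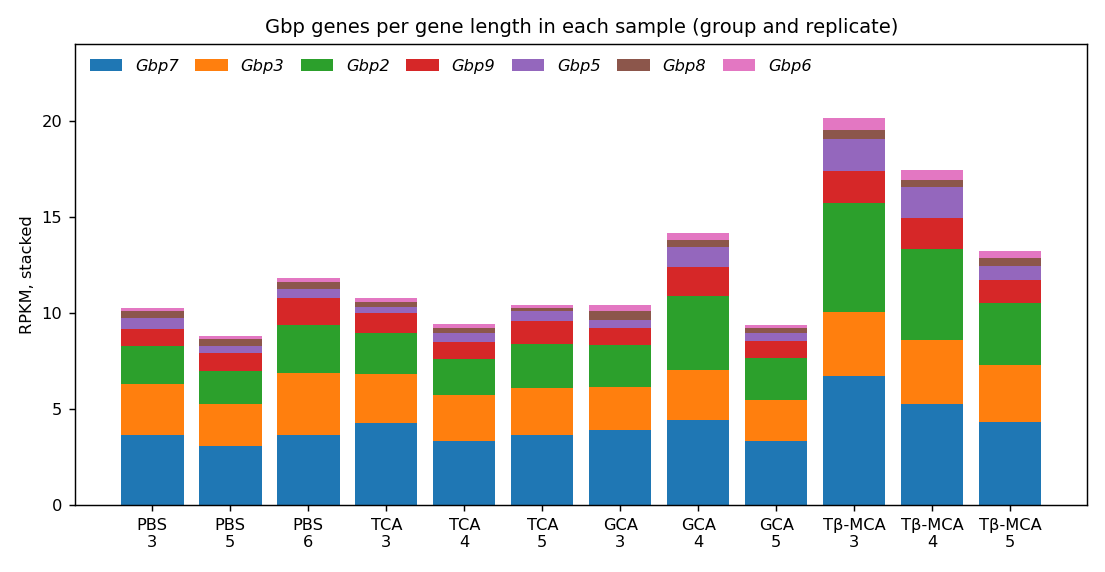
Stacked RPKM of the 7 genes (y axis) in each of the 12 samples, named by group and replicate on the x axis. The sum runs from 8.80 to 11.8 in the PBS samples and from 13.3 to 20.1 in the Tβ-MCA samples, and GCA replicate 4, at 14.2, stands between the other samples with GCA and the highest with Tβ-MCA.

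Gbp5, which promotes NLRP3 inflammasome assembly, had the largest log2 fold change of the 7 between Tβ-MCA and PBS in edgeR, while by limma on log2(RPKM + 1), a scale that understates low genes, Gbp2 (0.83) stood above it (0.66). Its levels were 3.79, 2.47 and 3.24 CPM for PBS (replicates 3, 5 and 6) and 10.9, 10.6 and 4.92 CPM for Tβ-MCA (replicates 3, 4 and 5, the order used throughout), a log2 fold change of 1.47 ± 0.38 (SE). All 3 Tβ-MCA samples lay above all PBS samples, with replicate 5 well below the other two. With TCA it was at 2.20, 3.12 and 3.30 CPM and with GCA at 2.93, 6.79 and 2.88 CPM. The TCA samples lay within or just under the PBS range, and among the GCA samples replicate 4 alone exceeded it, at a level above that of Tβ-MCA replicate 5.

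Gbp2, a member that coats bacteria and vacuoles of parasites and takes part in the activation of the AIM2 inflammasome, was highest in the same 4 samples. It was at 5.14, 4.30 and 6.36 CPM with PBS and at 14.1, 11.5 and 7.92 CPM with Tβ-MCA, a log2 fold change of 1.08 ± 0.24. The TCA samples were at 5.46, 4.64 and 5.69 CPM and the GCA samples at 5.66, 9.45 and 5.50 CPM. Tβ-MCA replicate 5 was again the lowest of its group, and GCA replicate 4 again stood above both it and every PBS sample.

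The Gbp6 row was at 1.20, 0.942 and 1.21 CPM with PBS and at 3.59, 3.08 and 2.14 CPM with Tβ-MCA, a log2 fold change of 1.38 ± 0.27. With TCA it was at 1.05, 1.11 and 1.14 CPM and with GCA at 1.75, 2.23 and 1.04 CPM. Its Tβ-MCA samples did not overlap the PBS samples, and 2 of 3 GCA samples were above them. Gm43302, with which the row shares most of its sequence, had a log2 fold change of 1.44 ± 0.31 in the same comparison.

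Gbp7, the most abundant member and one that has been linked to the assembly of the phagocyte NADPH oxidase, was at 21, 17.4 and 20.6 CPM with PBS and at 37.1, 28.7 and 24.0 CPM with Tβ-MCA. Its log2 fold change was 0.60 ± 0.15 and its groups did not overlap. With TCA it was at 24.7, 18.9 and 20.6 CPM and with GCA at 22.4, 24.5 and 18.9 CPM, so that TCA replicate 3 and GCA replicate 4 lay above Tβ-MCA replicate 5.

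For the remaining 3 members the Tβ-MCA and PBS samples overlapped. Gbp9 was at 4.70, 4.88 and 7.28 CPM with PBS and at 8.23, 8.16 and 6.08 CPM with Tβ-MCA (log2 fold change 0.41 ± 0.22). Gbp3 was at 8.89, 7.30 and 10.5 CPM with PBS and at 10.6, 10.6 and 9.64 CPM with Tβ-MCA (0.20 ± 0.13). Gbp8 was at 1.18, 1.27 and 1.19 CPM with PBS and at 1.59, 1.19 and 1.5 CPM with Tβ-MCA (0.23 ± 0.26). Gbp9 shared with Gbp2 and Gbp5 a high value in GCA replicate 4, which was 7.65 CPM against 4.59 and 4.56 CPM in replicates 3 and 5. Gbp3 and Gbp8 did not, as GCA replicate 4 was at 8.31 CPM for Gbp3, within the PBS range, and at 1.15 CPM for Gbp8, the middle value of its group.

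**Figure D3:**
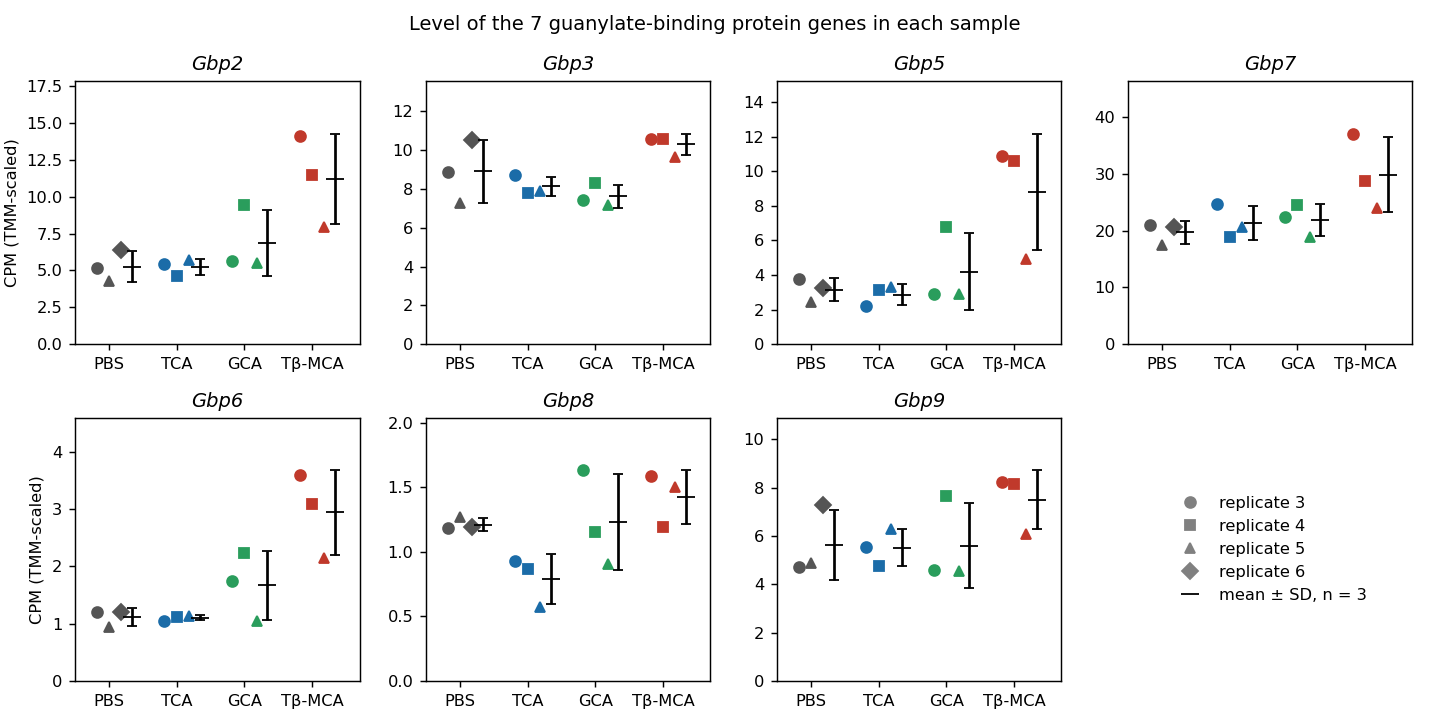
CPM of each of the 7 genes (y axes, from 0) in the 4 groups. Symbols are single samples shaped by replicate number, and the bar beside them is the mean with the SD (n = 3). The Tβ-MCA samples of Gbp2, Gbp5, Gbp6 and Gbp7 lie above all PBS samples, and the square of GCA replicate 4 stands apart from the other GCA samples in Gbp2, Gbp5 and Gbp9.

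In all, 4 of 7 members lay higher in every Tβ-MCA sample than in every PBS sample. Among all genes tested this held for 14.1%, and since the members were selected on the Tβ-MCA samples nothing is read from the count. The median log2 fold change of the 7 was 0.60 beside 0.00 over all genes. Set side by side with the other bile acids, the log2 fold changes of Tβ-MCA ran from 0.34 (Gbp3) to 1.61 (Gbp5) against TCA and from 0.21 (Gbp8) to 1.07 (Gbp5) against GCA. These comparisons share the Tβ-MCA samples with that against PBS. Set against the sample of the same replicate number, Gbp8 was lower with Tβ-MCA than with GCA in replicate 3 (1.59 against 1.63 CPM). Gbp9 was lower with Tβ-MCA than with TCA in replicate 5 (6.08 against 6.28 CPM). In each comparison the other members were higher with Tβ-MCA in all 3 pairs. No share of all genes was taken for this and the labels do not say what a number marks, so nothing is read from it. Without Tβ-MCA replicate 5 the log2 fold changes against PBS were 1.76 for Gbp5, 1.57 for Gbp6, 1.28 for Gbp2 and 0.74 for Gbp7, and without Tβ-MCA replicate 3 they were 1.29, 1.22, 0.88 and 0.42. That of Gbp3 ran from 0.08 to 0.34, that of Gbp8 from 0.15 to 0.35 and that of Gbp9 from 0.30 to 0.64 when 1 sample of either group was left out, Gbp9 being highest without PBS replicate 6.

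The other Gbp genes of the table did not all share this direction. Gbp4, which shares its first exon with Gbp8 and Gbp9, was lower with Tβ-MCA, at 0.479, 0.351 and 0.375 CPM against 0.861, 0.794 and 1.02 CPM with PBS. Its log2 fold change was -1.15 ± 0.37 (edgeR adjusted p = 0.066), which did not pass the threshold of 0.05, although the groups did not overlap. These levels rest on 13 to 38 counts per sample. Gbp10 had 2 to 25 counts per sample in all 4 groups and a log2 fold change of 0.70 ± 0.70 against PBS (adjusted p = 0.578). Gbp11 had at most 10 counts and Gbp2b at most 2 counts in any sample, and neither was tested.

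Whether the other bile acids changed these genes was tested, because the genes were chosen for their level with Tβ-MCA. The samples of the other groups, PBS among them, were those that Tβ-MCA stood above, so these tests are not fully independent of the choice. No member passed an adjusted p of 0.05 in TCA against PBS, where edgeR called 0% of all genes. At an unadjusted p under 0.05, 1 of 7 members was below this limit, as were 3.26% of all genes. This was Gbp8, whose TCA samples, at 0.931, 0.870 and 0.569 CPM, all lay below the PBS samples, as those of 4.76% of all genes did. Its log2 fold change was -0.61 ± 0.28 (edgeR unadjusted p = 0.0418, adjusted p = 1), resting on 21 to 44 counts per sample. DESeq2 placed 0 of 7 members and limma on RPKM 0 of 5 under either limit. For the other 6 members the log2 fold changes ran from -0.13 to 0.12. The 95% intervals were widest for Gbp5, from -1.01 to 0.74, and narrowest for Gbp3, from -0.40 to 0.14.

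With GCA against PBS, edgeR called 0 of 7 members and 0% of all genes at an adjusted p under 0.05. At an unadjusted p under 0.05 it called 0 of 7 members and 3.53% of all genes, and neither DESeq2 nor limma placed a member under either limit. Limma did not test the Gbp6 row or Gbp8. The largest difference was that of the Gbp6 row, with a log2 fold change of 0.57 ± 0.28 and a 95% interval from -0.02 to 1.16 (edgeR unadjusted p = 0.0587, adjusted p = 0.999). Gbp5 followed with 0.40 ± 0.39 (-0.45 to 1.26) and Gbp2 with 0.38 ± 0.24 (-0.14 to 0.90). Both rested on GCA replicate 4, without which the values were -0.13 for Gbp5 and 0.08 for Gbp2, while that of the Gbp6 row was 0.31.

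TCA and GCA were given at the same dose for the same time and differ in the amino acid joined to cholic acid, taurine in TCA and glycine in GCA. They were the 1 pair of compounds compared, with p-values adjusted over all genes tested. No member differed between them at an adjusted p under 0.05, where edgeR called 0% of all genes, and DESeq2 and limma called no member either. At an unadjusted p under 0.05 edgeR placed 2 of 7 members and 2.46% of all genes, and DESeq2 placed 0. The 2 placed by edgeR were Gbp8 and the Gbp6 row. Limma tested neither of them and placed none of the members it tested. Gbp8 was higher with GCA by a log2 fold change of 0.64 ± 0.28 (95% interval 0.05 to 1.22, edgeR unadjusted p = 0.0357, adjusted p = 1). The Gbp6 row was higher by 0.60 ± 0.28 (0.00 to 1.19, edgeR unadjusted p = 0.0493, adjusted p = 1). The samples of the 2 groups overlapped for all 7 members. For Gbp7 the interval of the difference was -0.29 to 0.37 and for Gbp3 -0.37 to 0.18, whereas for Gbp5 it was -0.32 to 1.39, so a difference of more than 2-fold in Gbp5 was within the interval. Without GCA replicate 4 the log2 fold changes of Gbp5, Gbp2 and the Gbp6 row fell to 0.01, 0.09 and 0.33. That of Gbp8 was 0.38 without GCA replicate 3 and 0.45 without TCA replicate 5.

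**Figure D4:**
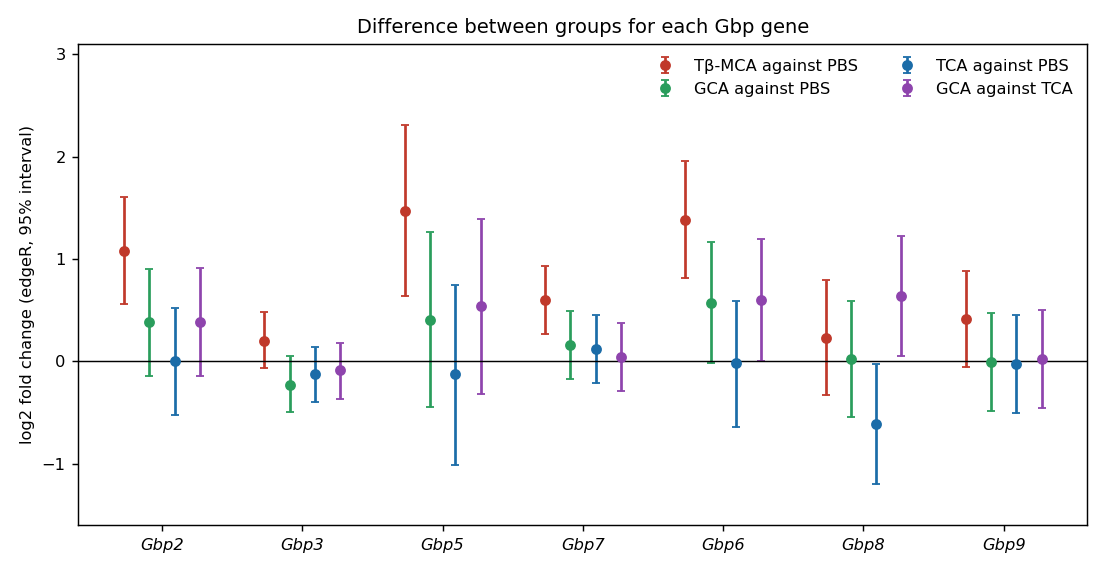
Log2 fold changes of the 7 genes (y axis) from edgeR, with 95% intervals, for Tβ-MCA, GCA and TCA against PBS and for GCA against TCA (3 samples a group). The Tβ-MCA values are a description, since the genes were selected on them. None of the other 3 comparisons holds a member with an adjusted p under 0.05.

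The 4 samples highest in Gbp5 were the 4 lowest in the monocyte markers. These were Tβ-MCA replicates 3 and 4, GCA replicate 4 and Tβ-MCA replicate 5 (10.9, 10.6, 6.79 and 4.92 CPM), in which the 12 monocyte and macrophage markers summed to 553, 712, 2195 and 2487 CPM. In the other 8 samples Gbp5 was at 2.20 to 3.79 CPM and these markers summed to 3005 to 3713 CPM, with TCA replicate 3 lowest in both. Of the markers, Ccr2, a chemokine receptor of monocytes, was at 2.03, 2.70, 24.9 and 29.2 CPM in the 4 samples in that order of Gbp5 and at 37.3 to 51.2 CPM in the others. All 12 were lower with Tβ-MCA than with PBS, with a median log2 fold change of -0.88, and 1 of them, Ly6c2, passed the test (-0.94 ± 0.22, edgeR adjusted p = 0.0353), where 3.18% of all genes were called lower and 4.44% higher. Without Tβ-MCA replicate 5, 11 of 12 passed, all lower, beside 9.44% of all genes lower and 8.52% higher. The neutrophil markers summed to 39881 to 45292 CPM with Tβ-MCA and to 45100 CPM in GCA replicate 4, against 47625 to 61349 CPM in the other 8 samples. Their median log2 fold change was -0.31, and 5 of 12 passed the test, all lower (Ly6g, S100a8, Lcn2, Camp and Mmp9), as did 9 of 12 without Tβ-MCA replicate 5. The 4 eosinophil markers, all lower with a median of -0.94, summed to 53.2 to 122 CPM with Tβ-MCA and to 136 to 237 CPM with PBS, and Siglecf passed the test (-0.93 ± 0.24, edgeR adjusted p = 0.0326). The 5 B cell markers were all lower too, with a median of -0.81 and sums of at most 5.86 CPM with Tβ-MCA against 7.50 to 12.5 CPM with PBS, and Cd79a passed (-0.81 ± 0.21, edgeR adjusted p = 0.0326). Of the 4 dendritic cell markers 3 were higher and 1 lower, with a median of 0.21. The medians of the T and NK cell, basophil and mast cell, and erythroid markers were -0.93, -0.49 and -0.11. No gene of these lists or of the dendritic cell list passed the test. In bulk RNA, fewer cells of a type and less RNA per cell cannot be told apart, and the part of any of these marker lists in the Gbp levels was not tested.

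**Figure D5:**
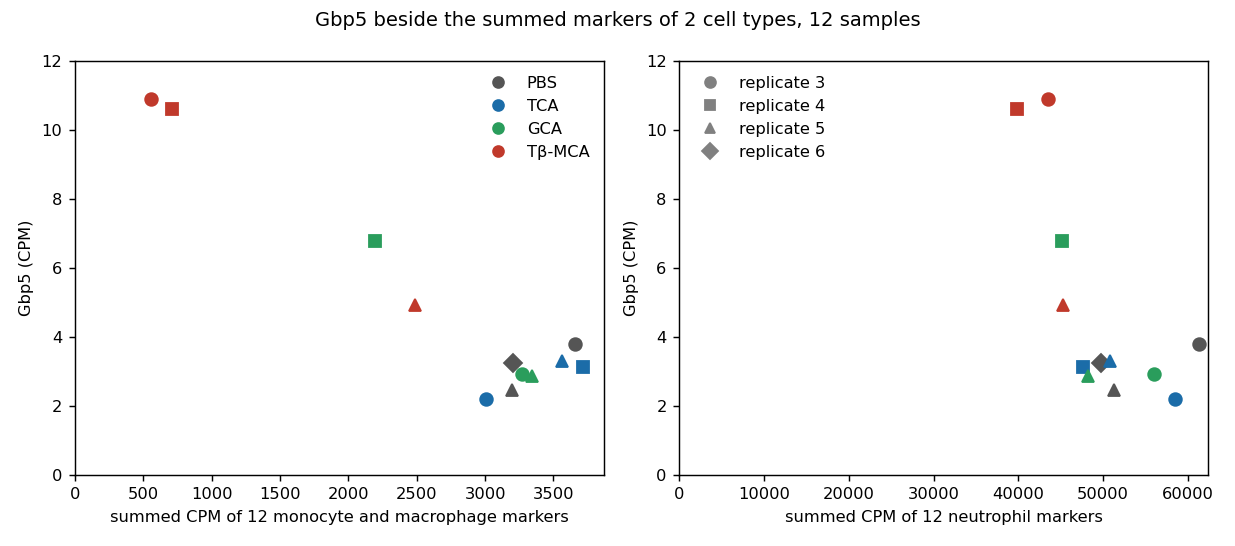
Gbp5 in CPM (y axes) against the summed CPM of 12 monocyte and macrophage markers (left x axis) and of 12 neutrophil markers (right x axis) in the 12 samples, with groups by colour and replicate numbers by shape. The 3 Tβ-MCA samples and GCA replicate 4 hold the highest Gbp5 and the lowest monocyte marker sums.

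In the pathway that induces Gbp genes, members were called in both directions. Of 40 genes of interferon-γ signalling and its targets, 36 were tested in Tβ-MCA against PBS. The list also held genes of type I interferon signalling, such as Ifnar1, Ifnar2, Tyk2 and Stat2. At an adjusted p under 0.05, 4 of the 36 were higher and 1 lower, beside 4.44% of all genes higher and 3.18% lower. The median of the 36 was 0.00, as was that of all genes. Higher were Psmb9, an immunoproteasome subunit (0.50 ± 0.09, edgeR adjusted p = 0.0206), the kinase Tyk2 (0.35 ± 0.09), and Tapbp (0.23 ± 0.06) and Tap1 (0.26 ± 0.08), which serve the loading of peptides on MHC class I. Lower was Cd74, the invariant chain of MHC class II (-0.91 ± 0.24, adjusted p = 0.0455).

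At the top of the pathway, Ifng had a count in 1 PBS sample and in none of the other 11. Of the receptor genes, Ifngr1 had a log2 fold change of 0.10 ± 0.09, Ifngr2 of -0.19 ± 0.08, Ifnar1 of 0.02 ± 0.07 and Ifnar2 of 0.03 ± 0.06, and none passed the test. The interferon regulatory factors named here did not pass it either. Irf1 was at 101, 110 and 91.3 CPM with Tβ-MCA against 82.4, 92.1 and 88.7 CPM with PBS, a log2 fold change of 0.20 ± 0.08 (edgeR adjusted p = 0.136). The log2 fold change of Irf9 was -0.15 ± 0.11 (edgeR adjusted p = 0.402) and that of Irf8, which monocytes express strongly, was -0.79 ± 0.22 (adjusted p = 0.0568). Without Tβ-MCA replicate 5, 7 genes of the list were called higher and 4 lower, beside 8.52% of all genes higher and 9.44% lower. Irf1 (0.26 ± 0.08, edgeR adjusted p = 0.0332) was among the higher and Irf8 (-1.15 ± 0.11, adjusted p = 3.63e-05) among the lower.

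Other interferon-inducible GTPases, such as the immunity-related GTPases that act on vacuoles of pathogens, were mostly below 0 on the log2 scale. Of 16 such genes 13 were tested, 10 of which had a negative log2 fold change. At an adjusted p under 0.05, 1 was higher (9930111J21Rik2, 0.33 ± 0.08, edgeR adjusted p = 0.0331) and 1 lower (Gvin1, -0.80 ± 0.20, adjusted p = 0.0414), with a median of -0.12, beside the 4.44% of all genes called higher and 3.18% called lower. The immunity-related GTPases Irgm1 (-0.40 ± 0.13, adjusted p = 0.0814), Igtp (-0.08 ± 0.14) and Irgm2 (-0.12 ± 0.12) did not pass. Among 24 tested type I interferon-stimulated genes Ifit1 was higher (0.74 ± 0.21) and Oas1g lower (-0.91 ± 0.26), 1 gene each way beside the same shares of all genes, and the median was -0.23. The atlastins Atl1, Atl2 and Atl3, which are the nearest relatives of the Gbp proteins among the membrane GTPases, did not pass the test, with log2 fold changes of 0.71 ± 0.35, 0.03 ± 0.07 and -0.08 ± 0.09.

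Of the inflammasome genes, which act downstream of Gbp proteins, 15 were tested, and 1 was higher and 4 lower with Tβ-MCA than with PBS, beside 4.44% of all genes higher and 3.18% lower. Pycard, which encodes the adaptor ASC, was at 130, 130 and 90.2 CPM against 76.2, 88.4 and 83.3 CPM (0.50 ± 0.12, edgeR adjusted p = 0.0331). The sensor Nlrp3 was lower, at 36.3, 38.7 and 54.3 CPM against 58.4, 67.9 and 65.9 CPM (-0.57 ± 0.13, adjusted p = 0.0278), as were Nlrc4 (-0.63 ± 0.15), Mefv (-0.44 ± 0.10) and the cytokine gene Il18 (-1.28 ± 0.37). In both genes Tβ-MCA replicate 5 was the sample nearest to PBS, as it was for Gbp5. Casp1 (0.31 ± 0.14, adjusted p = 0.177) and Gsdmd (-0.09 ± 0.09, adjusted p = 0.568) did not pass. None of the genes of the interferon, GTPase and inflammasome lists passed the test in TCA or GCA against PBS or in GCA against TCA. In these comparisons 0% of all genes were called, so the lists do not stand apart there.

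Apart from Gbp5 and Gbp6, the genes whose profile over the 12 samples was nearest to the mean of Gbp5 and Gbp6 were Polr3g, Map3k4, Tubb5, Cat, Ddhd1, Adi1, Mfsd1 and Gm43302. The likeness was measured as the root-mean-square difference of log2 CPM scaled to unit SD per gene, which ran from 0.185 for Polr3g, a subunit of RNA polymerase III, to 0.24 for Gm43302, whose transcript sequence is largely that of Gbp6 and Gbp10. Polr3g was at 14.1, 13.9 and 8.48 CPM with Tβ-MCA, 10.0 CPM in GCA replicate 4 and 5.30 to 6.82 CPM in the other 8 samples. The kinase gene Map3k4 was highest in the same 4 samples, at 54.4, 49.9 and 37.9 CPM with Tβ-MCA, 38.7 CPM in GCA replicate 4 and 25.6 to 32.1 CPM in the others. Gbp2 came next among the members, at a difference of 0.26, which ranked it 14 of all genes. The differences of Gbp7, Gbp9, Gbp3 and Gbp8 were 0.498, 0.642, 0.78 and 0.971. These distances describe 12 samples that share the libraries on which Gbp5 and Gbp6 were chosen.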

How the data were processed

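Per the labels, stranded mRNA libraries were made from 12 samples of mouse bone marrow neutrophils, 3 per group. According to the submitters' processing notes, the authors used Trimmomatic 0.36, STAR 2.5.3a and featureCounts of Subread 1.5.1 with GRCm38, and deposited raw read counts per gene. The authors also deposited RPKM values, which recalculation from the counts matched within a relative difference of 1.3e-06. The strand setting and the treatment of reads that fit several genes are not given in the sources used here. Counts were scaled by TMM and filtered with filterByExpr, and groups were compared by edgeR 4.0.16 (R 4.3.3, robust two-sided quasi-likelihood test, 12 samples in 1 fit, Benjamini-Hochberg adjustment over 16761 genes). The test was checked on simulated data with the same spread for all genes and changes only in genes of higher counts. That check does not cover genes with as few counts as Gbp8 or the uneven spread of real replicates. Alternatives were DESeq2 1.42.0, limma 3.58.1 on log2(RPKM + 1) for a mean RPKM of at least 0.5, other scalings, filters and samples, and a replicate block. Same-numbered samples had deviations from their group means correlated over genes at r of 0.20 to 0.24 in the 3 pairs of Tβ-MCA with GCA, 0.08 to 0.26 for TCA with Tβ-MCA and 0.07 to 0.31 for TCA with GCA (mean -0.07 for different numbers). Of these 3 only the first had every pair over 0.1. PBS shares only 2 numbers with each bile acid. Its 2 pairs were at 0.13 and 0.33 with TCA, 0.13 and 0.32 with GCA, and 0.06 and 0.24 with Tβ-MCA. The labels do not say what a number marks. Gene names, sequences and promoters came from GENCODE vM21 and RefSeq (GRCm38.p6). Shared windows were counted on both strands. No replicate pair agreed within sampling noise. The members and gene lists were chosen with earlier results of these data known. The text names all members, other Gbp genes, receptors and factors of the pathway (1 of which is not reported here), list genes past an adjusted p of 0.05, or else the most abundant ones, and the 8 genes nearest in profile. The values of Irgm1, Igtp, Irgm2, Casp1, Gsdmd and Ccr2 were described after they were seen.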

Additional observations from a re-analysis of the deposited data

How the results depend on the processing

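No Gbp member was called between TCA, GCA and PBS under any alternative run, and over all genes the adjusted calls there were 0 in edgeR but 37, 36 and 42 without the filter on low counts (TCA and GCA against PBS, GCA against TCA). The median log2 fold change of the members in Tβ-MCA against PBS, 0.60, was 0.42 to 0.74 when 1 sample was left out and 0.63 with the replicate block. On RPKM it was 0.34 with a pseudocount of 1 and 0.62 with 0.1. Against TCA it was 0.85, 0.66 to 0.97 when 1 sample was left out and 0.42 by limma on log2(RPKM + 1), which tested 5 members. Against GCA it was 0.45, and 0.39 to 0.71 when 1 sample was left out. The comparisons with TCA and GCA were rerun by choice made after seeing the data.

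The list counts in Tβ-MCA against PBS were less firm, since all-gene calls fell from 1278 to 0 when only the 2 groups were fitted and to 0 to 168 without 1 sample other than Tβ-MCA replicate 5, but rose to 3076 without that replicate. The interferon-γ list, with 5 genes called, had 11 without the filter, 0 with only the 2 groups and 0 to 11 when 1 sample was left out. The GTPase list, with 2, had 4, 0 and 0 to 3, and 1 each with the replicate block and by limma. The inflammasome list, with 5, had 0 with only the 2 groups, 2 by limma and 0 to 8 when 1 sample was left out. The monocyte list, with 1, had 11 without the filter, 5 by DESeq2, 3 by limma, 0 with only the 2 groups and 0 to 11 when 1 sample was left out. The causes were not tested. Of 356 values of single members under an alternative, 352 kept their call or moved by less than the replicate SD. The others were those of Gbp3 with the block (0.33) and without PBS replicate 5 (0.08) or 6 (0.34), and of Gbp5 by limma (0.66).

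With the replicate block, all-gene calls went from 0 to 3 in TCA against PBS (1 by DESeq2), from 1278 to 1498 in Tβ-MCA against PBS, from 588 to 2322 in Tβ-MCA against TCA and from 0 to 332 in Tβ-MCA against GCA, and stayed at 0 in GCA against PBS and against TCA. The median of the members with the block was 0.43 against GCA and 0.85 against TCA. Gbp8 rested on 21 to 58 counts per sample, which limits what could be detected there.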
